A study of Mus musculus with 8 samples.

Results

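Heat shock proteins and their relatives were examined in the yolk sac of the FVB/N mouse at embryonic day 9.5, in laser captures of primitive erythroid precursors and of epithelial cells. The genes were chosen by symbol: those starting with Hspa, Hspb and a digit, Hspd1, Hspe1, Hsph1, Hsp90, Dnaja, Dnajb, Dnajc, or Cct and a digit. This rule found 68 of the 12393 genes that the array's annotation names singly, on 144 of 22626 probe sets, and 2 further probe sets annotated to a member and a second gene were left out. The study held 4 erythroid and 4 epithelial samples in 4 pairs, with both samples of a pair taken from the same slides and 1 array for each sample. Both groups were untreated wild-type tissue of the same strain and age, and each replicate pooled 2 to 4 yolk sacs from 2 litters.

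Chaperones bind unfolded or partly folded proteins and help them reach their native shape. The Hsp70 proteins hold short exposed stretches of a client and let go of it in a cycle driven by ATP, J proteins (the Dnaja, Dnajb and Dnajc families) deliver clients to them and start ATP hydrolysis, and Hsp90 acts later on kinases and receptors. The Cct subunits form a barrel in the cytosol that folds actin and tubulin, Hspd1 and Hspe1 form the barrel of the mitochondrial matrix and its lid, and the small heat shock proteins hold clients without ATP. Many of these genes are transcribed at rest and raised further by heat shock factors, which bind repeats of the unit nGAAn. Red cell precursors use chaperones while they fill with hemoglobin, and the yolk sac endoderm uses those of the endoplasmic reticulum while it secretes serum proteins.

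Signals are the authors' MAS5 intensities on a linear scale, which measure 1 probe set across arrays and not 1 gene against another. Array medians ran from 81.6 to 127, and 48.7% to 57.7% of an array's probe sets exceeded its background level, the 95th percentile of 117 probe sets for receptors and other genes of specialised tissues. The sets of pairs differed in a common sign of RNA quality: in pairs 1 and 2 the Gapdh control probes gave 3' signals 38.7 to 44.4 times the 5' ones, against at most 17.4 times in pairs 3 and 4. Means within each set of pairs are therefore given beside a number of the values. Within pairs the ratio differed by less than its spread (mean log2 difference 0.28, SD 0.56, n = 4 pairs, two-sided exact permutation p = 0.5, where 4 pairs cannot reach the threshold). Most of their labels' markers separated the captures: 8 of 11 red cell markers tested were called higher in the erythroid captures and 0 lower, while 10 of 12 endoderm markers were called lower and 0 higher. The red cell markers without a call were the globin genes Hbb-bh1 (log2 difference -0.11) and Hbb-y (0.07), and Epor (1.46). The endoderm markers without a call were Afp (-0.16) and Ttr (-0.20). Markers of other cells were also called: 6 of 9 mesenchyme and mesothelium, 2 of 5 platelet and 1 of 6 endothelium markers were higher, and 1 of 5 macrophage and leukocyte markers was lower. The erythroid and epithelial captures each held signal of the other's markers. Summed signals of the 11 red cell markers were 76744 to 150244 in the erythroid and 48102 to 92036 in the epithelial captures. Those of the 12 endoderm markers were 65509 to 100865 in the erythroid and 105165 to 166737 in the epithelial captures. Hbb-bh1 and Hbb-y made up much of the red cell sums, and Afp and Ttr much of the endoderm ones, so that the sums say little of the dimmer markers. In such captures fewer cells of a type and less RNA per cell cannot be told apart.

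Of the 68 genes, 53 had a probe set bright enough to be tested, and 3 of these were called at an adjusted p under 0.05 (limma, erythroid against epithelial within pairs, Benjamini-Hochberg over all 11449 probe sets tested). The small heat shock protein Hspb8 rose in the erythroid captures, and the inducible Hsp70 gene Hspa1b and the J protein Dnajc1 fell. These 3 are 5.66% of the members tested, below the 14.9% of all 7191 genes tested that were called. In each direction, 1 member was higher against 6.02% of all genes, and 2 were lower against 8.87%. The median difference over the 53 members was -0.06 on the log2 scale (erythroid minus epithelial), beside -0.01 over all genes, and 22 lay above 0 and 31 below. Typical differences were small: the median absolute value was 0.25 for members and 0.36 for all genes. For 39 of the 53 members (73.6%, beside 52.5% of all genes) the 95% interval of the difference lay within 1 on the log2 scale, so that a change of 2-fold or more lay outside it. An unadjusted p under 0.05 was reached by 17 members, or 32.1%, beside 31.1% of all genes, and most of these did not pass the adjustment. All 4 pairs shared 1 sign in 19 of the 53 members, beside 2748 of the 7191 genes. The share of members called stayed below that of all genes in every alternative setting except the fit of pairs 3 and 4 alone, where 18 of 55 members (32.7%) and 25.5% of all genes were called. A fit of fewer pairs has less spread of its own to go on and leans more on the variance of other probe sets.

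**Figure D1:**
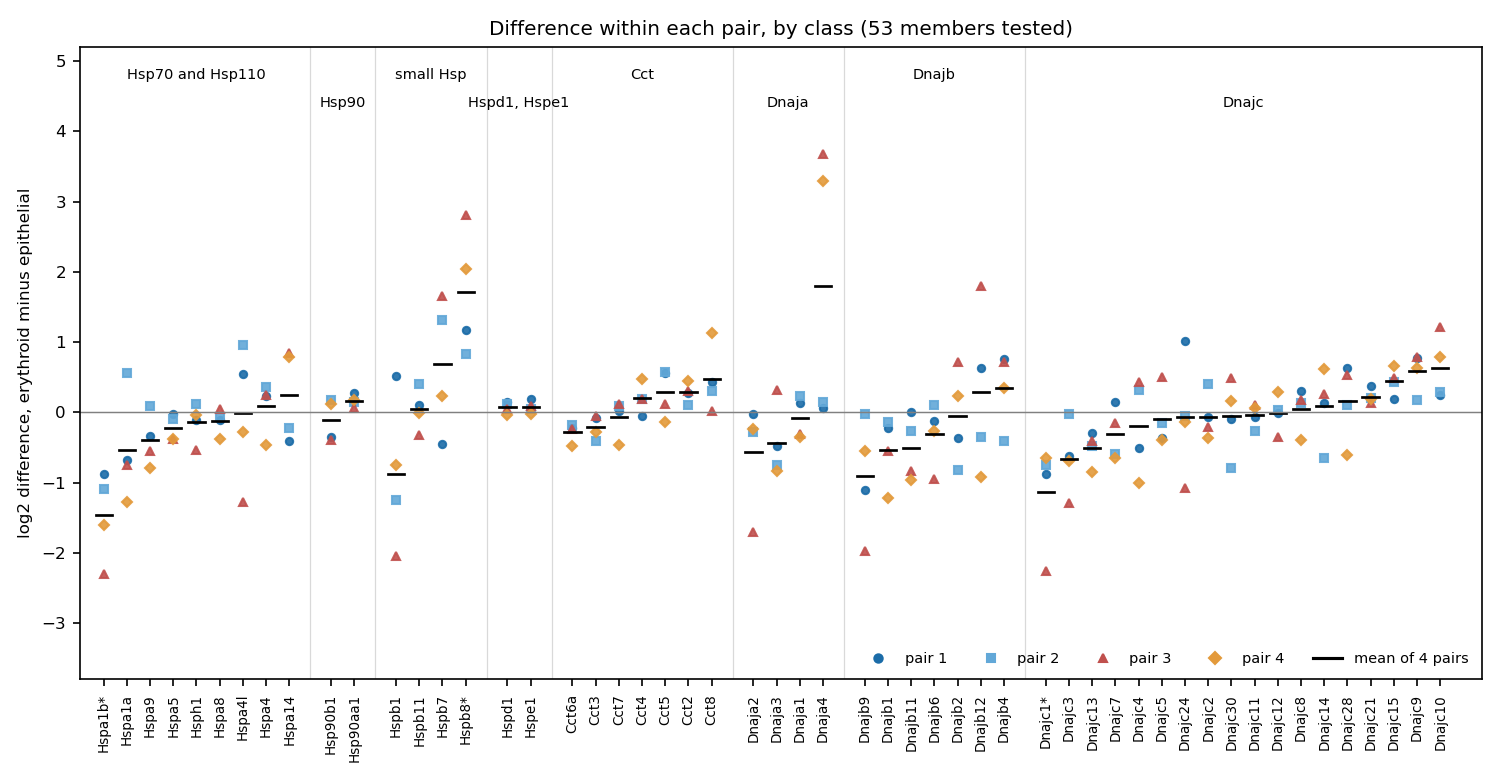
Difference between the captures of each pair (y axis, log2 units, erythroid minus epithelial, quantile normalised) for the 53 members tested, ordered by class along the x axis, with a symbol for each of the 4 pairs, a bar for their mean and an asterisk at the 3 members called. Hspb8 lies above 0 in all 4 pairs and Hspa1b and Dnajc1 below 0 in all 4, while Hspd1, Hspe1 and most Cct subunits lie close to 0 with little spread.

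Hspa1b and Hspa1a encode the inducible Hsp70 of the cytosol, which is made in quantity after stress. The promoters of this pair are shown because they are nearly the same, with 3 of 250 bases differing (98.8% identical), and because the genes themselves are near copies, so that their probe sets can pick up each other's transcripts. Both stand on chromosome 17 of the GRCm38.p6 build, on the minus strand, with starts 12918 bases apart, and the bases given (RefSeq) are the 250 before each start, 5′ to 3′. Capitals mark a match to GAANNTTC, a pair of facing units of the heat shock element, whose first base lies 104 bases before the start in each.
Hspa1b promoter, chr17:34959239-34959488: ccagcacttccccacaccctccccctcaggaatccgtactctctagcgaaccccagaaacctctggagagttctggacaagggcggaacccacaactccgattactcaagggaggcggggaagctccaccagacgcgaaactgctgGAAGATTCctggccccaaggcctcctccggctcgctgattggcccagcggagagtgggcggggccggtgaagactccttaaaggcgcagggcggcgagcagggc
Hspa1a promoter, chr17:34972157-34972406: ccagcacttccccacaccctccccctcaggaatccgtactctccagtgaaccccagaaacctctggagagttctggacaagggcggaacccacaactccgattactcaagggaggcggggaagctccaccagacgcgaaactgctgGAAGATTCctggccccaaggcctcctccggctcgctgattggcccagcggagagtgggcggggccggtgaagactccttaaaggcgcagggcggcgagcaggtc

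Hspa1b was lower in the erythroid captures, by over 2-fold. Its brightest probe set gave 1703, 508, 172 and 603 in the erythroid captures of pairs 1 to 4 and 3350, 1163, 797 and 1803 in the epithelial ones. The groups overlapped, but the erythroid capture was the lower in each of the 4 pairs, and pair 1 was the highest in both. The difference was -1.47 ± 0.25 on the log2 scale (SE, n = 4 pairs; limma adjusted p = 0.00449). Here and below, the SE is the moderated one of the limma fit, which draws on the variance of all probe sets tested. The mean of pairs 1 and 2 was -0.99 and that of pairs 3 and 4 was -1.95. Of its 2 other tested probe sets, 1 was called lower at -1.20 (adjusted p = 0.0431) and 1 gave -1.09 with no call (adjusted p = 0.0595). Without the pair term the call of Hspa1b ended (adjusted p = 0.234), as it did when probe sets that can bind several transcripts were left out (0.0614). It held without any single pair (adjusted p = 0.00462 to 0.032). Hspa1a, read from 1 probe set above background on 3 of 4 arrays of each group, gave -0.53 ± 0.35 with no call (adjusted p = 0.346).

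The Hsp70 proteins made at rest and the Hsp110 proteins that swap their nucleotide gave no call on their brightest probe sets. Of 9 Hsp70 and Hsp110 genes tested, Hspa1b fell and 8 gave no call, with a median of -0.14 for the class. Hspa8, the constitutive Hsp70 of the cytosol, which also strips clathrin from vesicles, gave 28185, 31280, 31973 and 13639 in the erythroid captures and 32476, 24072, 23726 and 15341 in the epithelial ones. Pair 4 was the dimmest in both groups, and the groups overlapped fully. The difference was -0.13 ± 0.09 (95% interval -0.32 to 0.07; limma adjusted p = 0.368), and its sign changed with the scaling, from -0.13 to 0.11.

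Hspa5, the Hsp70 of the endoplasmic reticulum also called BiP, lay at -0.22 ± 0.10 (adjusted p = 0.18), with the erythroid capture lower in 4 of 4 pairs after normalisation. Hspa9, the Hsp70 of mitochondria, which serves protein import and iron-sulfur cluster assembly, gave 6660, 9544, 4800 and 4559 in the erythroid captures and 9133, 7724, 7613 and 7310 in the epithelial ones. Only the erythroid capture of pair 2 exceeded its partner, and the difference of -0.40 ± 0.15 gave no call (adjusted p = 0.102). The Hsp110 genes Hsph1, Hspa4 and Hspa4l lay at -0.14, 0.10 and -0.01, and Hspa14, a ribosome-bound Hsp70 relative, at 0.25. For Hspa4, Hspa14 and Hspa4l these means join opposite signs. Hspa4 lay at 0.30 over pairs 1 and 2 and at -0.11 over pairs 3 and 4, and its sign changed with the scaling, from -0.11 to 0.10. Its other tested probe set lay at -0.77 with no call. Hspa14 gave 2374, 2057, 2081 and 1786 in the erythroid captures and 3374, 2452, 1201 and 1079 in the epithelial ones, so that the erythroid capture was the lower in pairs 1 and 2 (mean -0.31) and the higher in pairs 3 and 4 (0.82). Fitted alone, pairs 3 and 4 called it higher (limma adjusted p = 0.0157), and the interaction was not called (adjusted p = 0.0729). The other tested probe set of Hspa14 did not change sign: it lay at -0.10, with means of -0.11 and -0.08 in the sets of pairs. Hspa4l lay at 0.75 over the first set and -0.78 over the second (interaction adjusted p = 0.257). Hspa12b, an Hsp70 relative of endothelium, was too dim to test (of the endothelium markers, Tek was called higher, at 1.35, and 5 of 6 gave no call): it gave 108, 74.8, 75.2 and 161 in the erythroid captures, of which 2 lay above background, and 25.1, 30.5, 6.34 and 47.7 in the epithelial ones, of which 0 did.

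Neither Hsp90 gene tested was called, and a further one, Hsp90ab1, was not analysed here. Hsp90aa1, the stress-inducible cytosolic form, gave 17298, 21017, 18138 and 10728 in the erythroid captures and 15589, 14062, 15265 and 9791 in the epithelial ones. On this brightest probe set the erythroid capture was the higher in each pair, yet by little, at 0.17 ± 0.09 (95% interval -0.03 to 0.37; limma adjusted p = 0.253). The 3 tested probe sets of Hsp90aa1 ran from 0.17 to 0.29 with no call. On a dimmer one the difference in pairs 3 and 4 lay at -0.97 relative to that in pairs 1 and 2. Hsp90b1, the form of the endoplasmic reticulum that folds integrins and Toll-like receptors, lay at -0.11 ± 0.14 (adjusted p = 0.626) and was higher in 2 of 4 pairs. Its other tested probe set had the opposite sign, at 0.37, also with no call.

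Of 4 small heat shock proteins tested, Hspb8 rose and 3 gave no call. Hspb8, which works with Bag3 in clearing damaged proteins in muscle, gave 326, 418, 621 and 363 in the erythroid captures and 128, 264, 70.8 and 52.3 in the epithelial ones. Every erythroid capture lay above every epithelial one, and 2 of the 4 epithelial signals lay above background, so the size of the difference is uncertain. It was 1.71 ± 0.34 (limma adjusted p = 0.0091), with means of 1.00 for pairs 1 and 2 but 2.42 for pairs 3 and 4. A second probe set gave 1.66 ± 0.57 with no call (adjusted p = 0.0784). The call of Hspb8 ended without replicate 4 (adjusted p = 0.055) and in pairs 1 and 2 alone (0.08). The alpha-crystallin Cryab, a small heat shock protein outside the symbol rule, rose as well: its signals were 778, 1833, 1265 and 1331 against 664, 573, 218 and 112, with no overlap, and the difference was 1.86 ± 0.40 (adjusted p = 0.0121), with means of 0.92 and 2.80 in the sets of pairs. The call of Cryab ended without replicate 3 (0.0603), without replicate 4 (0.0701) and without the pair term (0.0603). Both genes are known from muscle. Of 9 mesenchyme and mesothelium markers tested, 6 were called higher and 3 gave no call (Postn, Col1a2 and Pdgfra, the last at 0.02). The summed signal of the 10 markers measured was 37152 to 55252 in the erythroid and 8125 to 33064 in the epithelial captures, and the median difference of the 9 tested was 0.34 for pairs 1 and 2 but 2.39 for pairs 3 and 4. The part of such cells in the values of Hspb8 and Cryab was not tested.

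Hspb1, known as Hsp25 in the mouse, protects actin filaments, and its promoter is shown because it carries 2 matches to GAANNTTC (capitals), beginning 117 and 97 bases before the start. The 150 bases before the start are given, plus strand, GRCm38.p6, RefSeq.
Hspb1 promoter, chr5:135887769-135887918: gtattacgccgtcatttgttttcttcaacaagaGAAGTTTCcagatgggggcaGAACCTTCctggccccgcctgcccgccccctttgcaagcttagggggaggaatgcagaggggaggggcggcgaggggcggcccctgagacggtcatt
Its brightest probe set gave 417, 197, 401 and 758 in the erythroid captures and 260, 496, 1588 and 1269 in the epithelial ones. The epithelial captures of pairs 3 and 4 were the high samples, and pair 1 went the other way. The difference of -0.88 ± 0.35 gave no call (limma adjusted p = 0.12; means -0.36 and -1.40 in the sets of pairs), whereas a dimmer probe set, on which the erythroid capture was lower in 4 of 4 pairs, was called at -1.32 ± 0.37 (adjusted p = 0.0401). Hspb11, also a subunit of intraflagellar transport, lay at 0.04 and Hspb7, a cardiac form, at 0.69 ± 0.49 (adjusted p = 0.382).

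**Figure D2:**
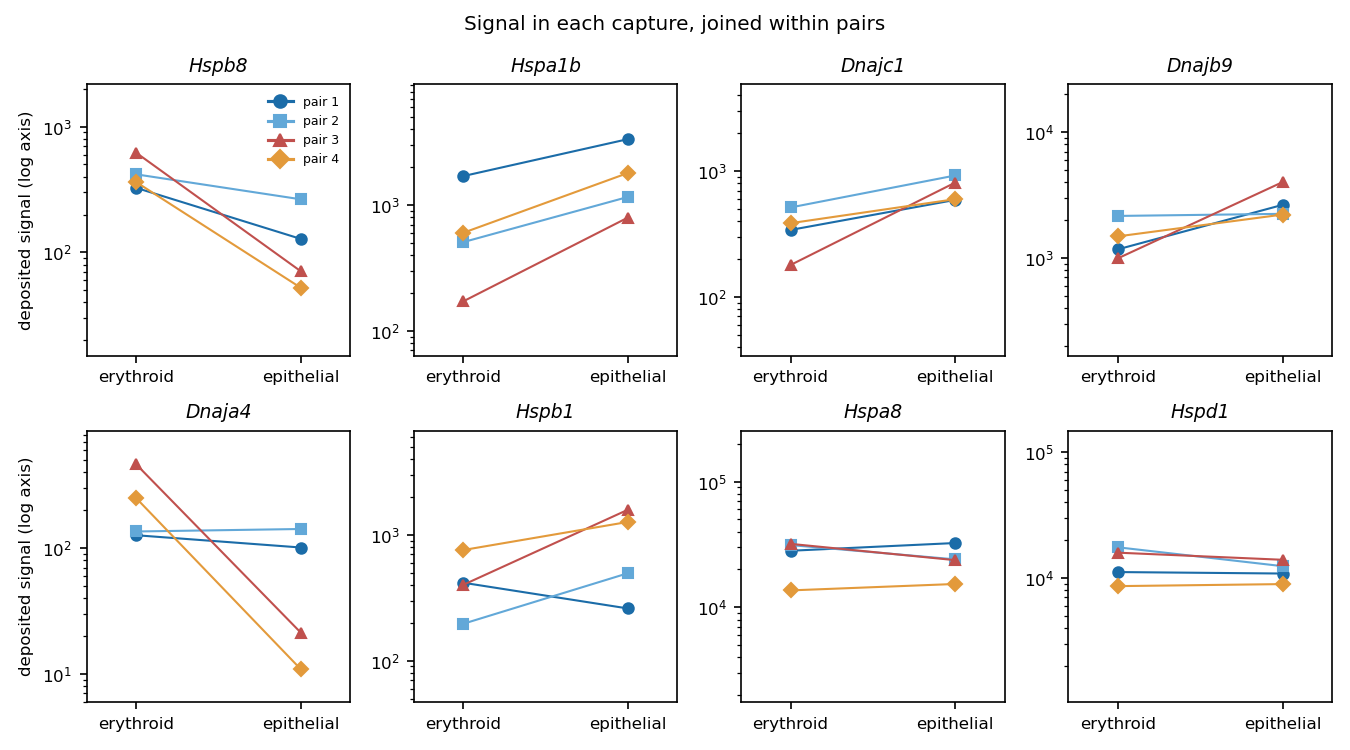
Deposited signal (y axis, log scale, arbitrary units) of the brightest tested probe set of 8 members in the erythroid and epithelial capture of each pair (x axis), with a line joining the samples of a pair. From erythroid to epithelial the lines of Hspb8 slope down in all 4 pairs and those of Hspa1b, Dnajc1 and Dnajb9 slope up in all 4, those of Dnaja4 slope steeply down in pairs 3 and 4 alone, and those of Hspa8 and Hspd1 are nearly flat.

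No chaperonin gene among the members was called on its brightest probe set. Hspd1 and Hspe1, the barrel and the lid of the mitochondrial chaperonin, lie head to head on chromosome 1 with starts 216 bases apart, and the stretch between them is shown because it holds 1 heat shock element that both genes share. The 180 bases before the start of Hspe1 are given on its plus strand (GRCm38.p6, RefSeq). Capitals mark 4 adjoining units in alternating orientation, where matches to TTCNNGAA and GAANNTTC overlap.
Hspe1 and Hspd1 shared promoter, chr1:55087968-55088147: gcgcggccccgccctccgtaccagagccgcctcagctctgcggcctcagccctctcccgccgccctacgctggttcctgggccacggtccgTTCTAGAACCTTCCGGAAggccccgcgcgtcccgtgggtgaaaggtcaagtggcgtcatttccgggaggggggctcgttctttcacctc

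Hspd1 gave 11153, 17552, 15904 and 8621 in the erythroid captures and 10857, 12424, 13964 and 8947 in the epithelial ones. Hspe1 gave 10716, 12436, 8228 and 7049 against 10117, 10145, 7814 and 7390. In both genes pair 2 held the highest erythroid signal, and pair 4 was the only pair with the epithelial capture higher. The differences were 0.07 ± 0.10 (95% interval -0.14 to 0.28) for Hspd1 and 0.07 ± 0.11 (-0.16 to 0.31) for Hspe1, with limma adjusted p = 0.675 and 0.683. Both changed sign with the arrays centred on their medians, to -0.02 and -0.09.

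Of 7 Cct subunits tested, 0 were called on their brightest probe sets (3 at an unadjusted p under 0.05), and the differences ran from -0.28 to 0.47 with a median of 0.20. All 7 had a 95% interval within 1 on the log2 scale. Cct6a gave 19012, 21696, 21172 and 14257 in the erythroid captures and 24536, 18058, 21566 and 17574 in the epithelial ones. Although these signals overlapped, the normalised values were lower in the erythroid capture of each pair, at -0.28 ± 0.09 (limma adjusted p = 0.056). Cct3 lay at -0.21 and Cct7 at -0.06. Cct8 (0.47 ± 0.21, adjusted p = 0.165), Cct2 (0.29), Cct5 (0.28) and Cct4 (0.20) lay above 0. Cct2 and Cct8 were higher in 4 of 4 pairs, and Cct5 was at 0.57 over pairs 1 and 2 but at -0.0031 over pairs 3 and 4. A further probe set of Cct4 was called at 0.49 ± 0.12 (adjusted p = 0.0199): its erythroid signals were 7656, 9199, 6592 and 6126 and its epithelial ones 6144, 5649, 4909 and 4567. Cct6b, a form of the testis, lay under background on all 8 arrays.

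Tcp1, the subunit also named Cct1 that the symbol rule leaves out, rose in the erythroid captures. It gave 7630, 9109, 9686 and 8074 there and 5292, 6120, 7259 and 7026 in the epithelial captures. No erythroid signal was as low as any epithelial one, but the difference was modest, at 0.42 ± 0.12 (limma adjusted p = 0.0364). Its call did not survive the loss of any single pair (adjusted p = 0.0757 to 0.119), any other scaling (0.0627 to 0.58) or the loss of the pair term (0.243). Pfdn5, a subunit of prefoldin, which hands actin and tubulin to the Cct barrel, was higher by 0.79 ± 0.20 (adjusted p = 0.0229) in 4 of 4 pairs. The call of Pfdn5 likewise ended without any single pair (0.0533 to 0.114), with the arrays centred on their medians (0.113) and without the pair term (0.173). Without x, s and a probe sets it was read from another probe set at 0.46 (0.23). These were the 2 genes called among 15 partners of the chaperonin tested, whose median was 0.17.

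J proteins were the largest family, with 38 genes and 29 tested, and 1 of them, Dnajc1, was called. Dnajc1, a J protein in the membrane of the endoplasmic reticulum, gave 340, 514, 179 and 385 in the erythroid captures and 590, 923, 811 and 598 in the epithelial ones. Each erythroid signal lay below each epithelial one, with pair 3 furthest apart, and the difference was -1.13 ± 0.29 (limma adjusted p = 0.0248). The mean of pairs 1 and 2 was -0.81 and that of pairs 3 and 4 was -1.46. Its other tested probe set gave -0.27 ± 0.22 (adjusted p = 0.468), with 364, 300, 507 and 430 against 320, 346, 719 and 607. The call ended without the pair term (0.108), with the mean of the probe sets (-0.70, 0.0688), without replicate 3 (-0.77, 0.0794) and without replicate 4 (0.0582). Without replicate 2 the other probe set was the brighter one, and the value was -0.34 (0.445). Neither set of pairs fitted alone called Dnajc1, which was called in 9 of 17 alternatives.

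Of the other J proteins of the endoplasmic reticulum, those described here gave no call. Dnajb9, which helps clear misfolded proteins from that compartment, gave 1172, 2160, 994 and 1486 in the erythroid captures and 2645, 2245, 4014 and 2215 in the epithelial ones. The groups did not overlap, and the difference was -0.91 ± 0.27, just outside the threshold (limma adjusted p = 0.0506). It passed in 8 of 17 alternatives, the 3 other scalings among them (-1.14 to -0.95). Dnajc3, an Hspa5 partner and inhibitor of a stress kinase, lay at -0.66 ± 0.22 (adjusted p = 0.0672) and Dnajb11, another partner of Hspa5, at -0.51 ± 0.21 (0.138), or -0.13 and -0.90 in the sets of pairs. Dnajc10, which reduces disulfide bonds there, lay on the other side, at 0.64 ± 0.21 (0.0721) and higher in 4 of 4 pairs. Its other tested probe sets lay at 0.29 and 0.14 with no call, each higher in 3 of 4 pairs. Dnajb12 (0.29), Dnajc14 (0.09) and Sec63 (0.27), J proteins of that compartment's membrane, also lay above 0 with no call. Sec63 is outside the symbol rule, and the other tested probe sets of Dnajc14 lay at -0.10 and -0.43. Of the 12 endoderm markers, 12 lay below 0 with a median of -1.29. The part of the captured cell types in the values of these J proteins was not tested.

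Cytosolic J proteins showed no call on their brightest probe sets. Dnajb1, the main partner of Hspa8 and Hspa1b and itself induced by heat, gave 6247, 8773, 6626 and 4575 in the erythroid captures and 7661, 8229, 10286 and 9148 in the epithelial ones. The signals overlapped through pair 2, and the difference was -0.53 ± 0.17 (limma adjusted p = 0.0632). It was -0.17 over pairs 1 and 2 but -0.88 over pairs 3 and 4. A dimmer probe set of Dnajb1 had the opposite sign, at 0.23 ± 0.28 (adjusted p = 0.622). Dnaja1, a farnesylated partner of Hspa8, lay at -0.08 ± 0.13, while its dimmer probe set was called at -0.55 ± 0.16 (adjusted p = 0.0397), with every erythroid signal (1986 to 2977) below every epithelial one (3506 to 4360). Dnaja2 and the mitochondrial Dnaja3 lay at -0.56 and -0.44. Dnajc9, a J protein that also binds histones, gave 2003, 1300, 1898 and 2233 against 1128, 1178, 1149 and 1539. It was higher in 4 of 4 pairs, at 0.59 ± 0.19 (adjusted p = 0.0577), with the epithelial capture of pair 4 above the erythroid one of pair 2. The other Dnajc genes ran from -0.51 for Dnajc13, an endosomal protein, to 0.44 for Dnajc15 of the mitochondrial inner membrane. The smallest difference of the Dnajc class was that of Dnajc12, at -0.01 (95% interval -0.47 to 0.45). In the Dnajb class it was that of Dnajb2, at -0.06 (95% interval -0.72 to 0.61).

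The values of Dnaja4, a further Hsp70 partner, lay far apart between the sets of pairs. It gave 127, 136, 465 and 250 in the erythroid captures and 101, 142, 21.3 and 10.9 in the epithelial ones. Pairs 1 and 2 were level, whereas in pairs 3 and 4 the erythroid capture was high and the epithelial one under background. The difference was 1.80 ± 0.65 over the 4 pairs (limma adjusted p = 0.0922), 0.11 over the first set of pairs and 3.48 over the second (interaction adjusted p = 0.0623). Since the epithelial signals of pairs 3 and 4 lay under those arrays' background levels of 90.5 and 55.1, the size of 3.48 is uncertain. Its promoter is shown because it holds 2 matches to GAANNTTC (capitals), beginning 90 and 52 bases before the start. The 150 bases before the start are on the plus strand (GRCm38.p6, RefSeq).
Dnaja4 promoter, chr9:54699409-54699558: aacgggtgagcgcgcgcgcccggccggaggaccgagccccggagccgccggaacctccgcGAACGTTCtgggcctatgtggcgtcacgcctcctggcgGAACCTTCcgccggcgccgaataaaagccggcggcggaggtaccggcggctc

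Matches to the heat shock element were counted in the promoters. RefSeq promoters were found for 56 of the 68 members, and 15 of them (26.8%) held GAANNTTC or TTCNNGAA, read on both strands, in the 250 bases before a start, beside 14.5% of the 27025 genes with a promoter in the table. A run of 3 units (GAANNTTC followed by NNGAA, or TTCNNGAA followed by NNTTC, so each also holds the shorter match) was found in 3 members, Hspd1, Hspe1 and Dnajb6, and in 0.514% of all genes. Of the 15 members with a match, 13 were tested, and 7 lay above 0 and 6 below, beside 22 and 31 of all 53 members tested. Their differences ran from -1.47 for Hspa1b to 1.80 for Dnaja4, with a median of 0.07. A match to the GATA motif (AGATAA or TGATAA on either strand) was found in 3 of 56 members (5.36%), beside 18.8% of all genes. These are letters in a window, not sites known to be bound.

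Among 65 tested genes that work with these chaperones, 4 were called higher and 0 lower, or 6.15% beside the same 14.9% of all genes. Besides Cryab, Tcp1 and Pfdn5 these were Hscb, the J protein that brings iron-sulfur cluster precursors to mitochondrial Hsp70. Hscb gave 372, 311, 454 and 476 in the erythroid captures and 144, 154, 268 and 242 in the epithelial ones. The groups did not overlap, and the difference was 0.96 ± 0.24 (limma adjusted p = 0.0255). Here pairs 1 and 2 gave the larger mean, 1.24, against 0.69 for pairs 3 and 4. The call of Hscb ended without replicate 1, 2 or 4 (adjusted p = 0.0711 to 0.0977), without the pair term (0.092) and with the arrays centred on their medians (0.0632). Of the 22 partners of Hsp70 tested, Hscb rose and 21 gave no call (4 at an unadjusted p under 0.05), among them Bag2 at -0.67 and the mitochondrial exchange factors Grpel2 at -0.62 and Grpel1 at -0.38. Of 13 partners of Hsp90, 0 were called with limma (0 also at an unadjusted p under 0.05), with values from -0.43 to 0.27. The heat shock factor Hsf2 was too dim to test, and Hsf4 lay at -0.27 ± 0.62. Hsf1 and the alpha globin chaperone Ahsp were not analysed here.

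Differences were larger in pairs 3 and 4 for 38 of 53 members (71.7%), beside 65.4% of all genes, by the size of the mean. The class medians are given first for pairs 1 and 2 and then for pairs 3 and 4. They were -0.06 and -0.38 for Hsp70 and Hsp110, 0.06 and -0.01 for Hsp90, and 0.34 and 0.39 for the small heat shock proteins. For Hspd1 and Hspe1 they were 0.13 and 0.02, and for Cct 0.07 and -0.0031. Among J proteins they were -0.02 and -0.29 for Dnaja, -0.13 and -0.60 for Dnajb, and -0.04 and -0.04 for Dnajc. Fits of each set alone, which test other probe sets, gave -0.08 and -0.51 for Hsp70 and Hsp110 but -0.07 and -0.07 for Dnajb. A test of the difference between the sets called 2 of 98 member probe sets (2.04%), beside 1.84% of all probe sets. On the brightest probe sets it called 0 of the 53 members, beside 144 of all 7191 genes tested. An unadjusted p under 0.05 was reached by 11 of these 53 members, beside 978 of the 7191 genes. The part of the RNA quality in these differences was not tested.

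**Figure D3:**
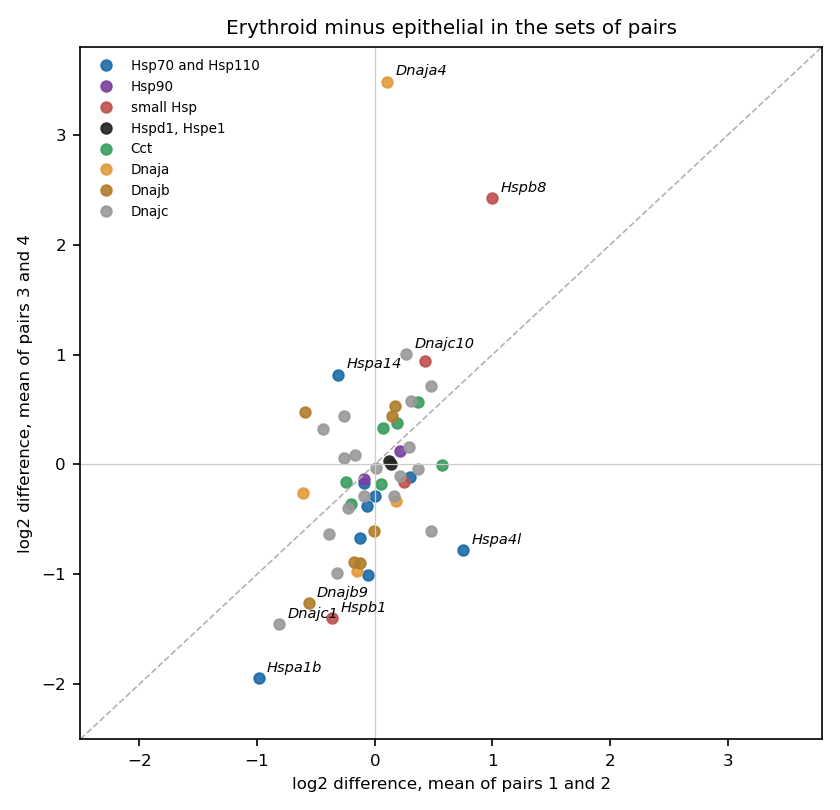
Mean difference of pairs 3 and 4 (y axis) against that of pairs 1 and 2 (x axis), both in log2 units, erythroid minus epithelial, with 1 point for each of 53 members, coloured by class, and a dashed line where both are equal. Dnaja4 stands far above the line at 0.11 and 3.48, Hspb8 lies at 1.00 and 2.42, and Hspa1b at -0.99 and -1.95.

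Probe sets of the same gene did not always give 1 answer. Of the 98 member probe sets tested, 3 were called higher and 5 lower (8.16%, beside 13.9% of all probe sets tested). Over all probe sets 6.19% were higher and 7.69% lower. Among 29 members with several tested probe sets, 12 (41.4%) had values of opposite sign, beside 33.8% of all such genes, and 7 had 1 or more called and another not. Hspa8 shows the spread: its brightest probe set lay at -0.13, and another was called higher at 0.52 ± 0.13 (limma adjusted p = 0.0247), with erythroid signals of 6620, 9959, 10033 and 7233 all above epithelial ones of 6423, 5854, 6130 and 5222. For Hspa1b, Hspb8, Hspb1, Dnajc1 and Dnaja1 all tested probe sets shared 1 sign.

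**Figure D4:**
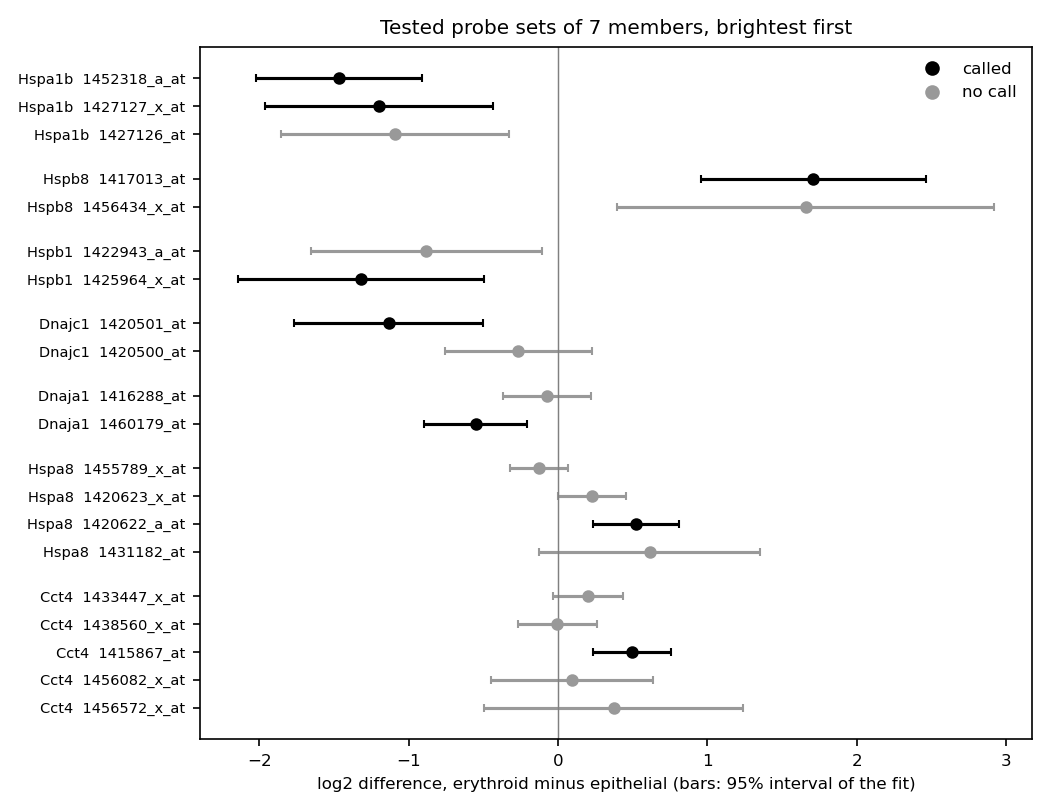
Difference between cell types (x axis, log2 units, erythroid minus epithelial) for each tested probe set (y axis) of the 7 members where some were called and others not, brightest first, with the 95% interval of the fit and black marking a call. The 3 probe sets of Hspa1b all lie below 0, while those of Hspa8 run from -0.13 to 0.61 and those of Cct4 from -0.0048 to 0.49.

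The 15 members too dim to test were Cct6b, Hspa1l, Hspa2, Hspa12b, Hspb2, Hspb3, Dnajb3, Dnajb5, Dnajb7, Dnajb8, Dnajb13, Dnajc5b, Dnajc17, Dnajc18 and Dnajc27. Of these, 5 lay under background on all 8 arrays, and several are known from testis or muscle. Dnajb3, a form of the testis, was read above background on 3 erythroid arrays and 0 epithelial ones, at 156, 100.4, 235 and 188 against 41.2, 70.4, 44.0 and 35.4.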

How the data were processed

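The authors deposited 1 MAS5 signal, an intensity on a linear scale, for each of 22690 probe sets (64 of them controls) on 8 arrays, each with a mean of 500 after trimming 2% at each end. GCOS, MAS5 and affy are named in the submitters' processing notes, with versions not given in the sources used here. Per the labels' protocols, 10 to 39 ng of RNA was amplified, and an erythroid cell took 2 to 3 laser pulses and an epithelial cell 1.

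Here 8.14, the 10th percentile of all values, was added before log2 was taken, and the arrays were quantile normalised. Probe sets reaching their array's median on at least 4 arrays were tested (limma 3.58.1 in R 4.3.3: lmFit, then eBayes with a trend in the variance, terms for pair and cell type, 3 residual degrees of freedom, two-sided, threshold 0.05). A gene was read from its brightest tested probe set. The procedure was tested on simulated data. Precision is limited by the 4 arrays of each group.

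The pairing comes from the labels. Deviations from the group means correlated at 0.44, 0.34, 0.31 and 0.54 within pairs 1 to 4. Across pairs they lay between 0.28 and 0.35 within each set of pairs (1 and 2, 3 and 4), and between -0.45 and -0.29 across the sets.

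Members and lists were chosen with earlier results of these data known. Named were members called in 1 direction in all 4 pairs, the largest and smallest change of each class, a fixed list of core chaperones with all Cct subunits, members whose probe sets disagreed, and called partners. Chosen after their values were seen were Dnajb1, Dnajb3, Dnajb11, Dnajb12, Dnajc3, Dnajc9, Dnajc10, Dnajc13, Dnajc14, Dnajc15, Dnaja2 and Dnaja3. So were Hspa1a, Hspa4, Hspa12b, Hspa14, Hspb7, Bag2, Grpel1, Grpel2, Sec63 and Hsf4. Alternatives varied the pair term, scaling, offset, filter, variance trend, probe sets and pairs used. Fits of fewer pairs left fewer residual degrees of freedom than the main fit.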

Additional observations from a re-analysis of the deposited data

Results flagged for a closer look

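Of 106 groups of 4 signals, 4 held a sample far from the other 3, by Dixon's 95% critical value for the gap over the range. Chance gives about 1 in 20 such groups, so this number is no more than chance gives. In the epithelial captures, Dnaja1 gave 7051 in replicate 2, where the others lay between 8371 and 8578, and Dnajc9 gave 1539 in replicate 4, where the others lay between 1128 and 1178. In the erythroid captures, Hspa1a gave 443 in replicate 1, where the others reached at most 117, and Hspa5 gave 15652 in replicate 2, where the others reached at most 11425.

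For 2 probe sets the difference between cell types was not the same in the sets of pairs, by the interaction term of the fit. A probe set of the Hsp110 gene Hspa4 gave 1626, 2395, 878 and 3247 in the erythroid captures and 1291, 1747, 8208 and 5410 in the epithelial ones, so that the difference in pairs 3 and 4 lay at -2.31 relative to that in pairs 1 and 2 (limma adjusted p = 0.0233). A probe set of Hsp90aa1 gave 9954, 7442, 7014 and 7519 against 5457, 4345, 10081 and 7477, which put the same quantity at -0.97 (adjusted p = 0.0434). Neither was the brightest probe set of its gene, and those gave no such call.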

How the results depend on the processing

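With no replicate block (no pair term), 1 member was called higher and 0 lower, against 1 and 2 with it, 0 other chaperone genes were called higher against 4, and 109 genes in all were higher and 212 lower against 433 and 638. With the deposited scaling 4 members were lower. With arrays centred on their medians, which moved the median of all genes from -0.01 to -0.14, 5 members were lower, and of the other chaperone genes 1 was higher and 2 lower. This scaling left 298 genes higher and 788 lower. Of the 3 members and 4 partners called, Hspb8 alone kept its call without the pair term and Hspa1b alone without the variance trend (adjusted p = 0.0449; Hspb8 0.0514). The sign of 10 of 53 members changed with the scaling, all 10 without a call. With no filter 2 other chaperone genes were higher, and with the stricter filter 5 members were lower. With no variance trend 0 members were higher and 1 lower, 0 other chaperone genes were higher, and 106 genes in all were higher and 246 lower. With the mean of a gene's probe sets 2 members were higher and 1 lower. Without x, s and a probe sets 2 members and 1 other chaperone gene were higher.

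Leaving out 1 pair at a time gave 0 to 2 members higher and 1 to 5 lower, 0 to 2 other chaperone genes higher and 0 to 2 lower, and 118 to 446 genes higher and 248 to 603 lower in all, with the fewest calls over all genes without replicate 4. Pairs 1 and 2 alone gave 1 member lower, and 249 genes higher and 393 lower. Pairs 3 and 4 alone gave 6 members higher and 12 lower, 7 other chaperone genes lower, and 882 genes higher and 1020 lower. There Hspa4 was read from another probe set, which was the brighter one in these pairs, and reversed to -1.82. Of the 50 members without a call, 33 were called in none of the 17 alternatives. The causes of these shifts were not tested.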
